A study of Mus musculus with 4 samples.

Results

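Tendon identity genes are the genes by which tendon and ligament cells are commonly recognized, and 7 of them were followed here across the mesenchymal cells of the mouse fracture callus: *Scx*, *Mkx*, *Tnmd*, *Thbs4*, *Cilp*, *Cilp2* and *Angptl7*. They were chosen by name from the 32285 genes of the count matrices, with earlier results of these data known, and all 7 were present. *Scx* and *Mkx* encode transcription factors, *Tnmd* a membrane protein, and the other 4 secreted proteins. Scleraxis, the product of *Scx*, marks tendon progenitors from early development on and acts on genes of the tendon matrix, Mohawk, the product of *Mkx*, sustains collagen production in tendon, and tenomodulin, the product of *Tnmd*, is the most widely used marker of the maturing tendon cell. In fracture repair, mesenchymal progenitors of the periosteum are best known for giving rise to cartilage, bone and fibrous tissue, and tendons and ligaments attach to the same surface.

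The data were 4 single-cell RNA-seq libraries (10x Genomics 3′ chemistry, in which each captured mRNA molecule is counted once by its unique molecular identifier, UMI) of callus from tibial fractures in wild-type C57BL/6J mice at the age of 3 months. Control mice received vehicle (PBS) and RA mice received K/BxN serum, which passively transfers an inflammatory arthritis through its autoantibodies, by injection on 0 and 3 dpf (days post fracture) and every 5 days thereafter. Callus was scraped from the periosteal surface at 4 or 7 dpf, which gave the libraries control 4 dpf, control 7 dpf, RA 4 dpf and RA 7 dpf. Each library was a pool of calluses, and there was 1 library per group, so differences between RA and control or between days had no replicate check, were not tested, and cannot be told apart from differences between library preparations. The intervals given below are 95% intervals of the counts alone. Each ratio of levels has the exact conditional Poisson interval and each share of cells the Clopper-Pearson interval, and neither holds the spread between animals.

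The genes lie on 7 different chromosomes of the mouse genome (GRCm38, gene limits of GENCODE M21). *Scx* spans chr15:76457452-76459458 on the plus strand, within the minus-strand gene *Bop1*. *Mkx* spans chr18:6934518-7004780 on the minus strand and *Tnmd* chrX:133850980-133865577 on the plus strand. *Thbs4* spans chr13:92751590-92794818 on the minus strand. *Cilp* spans chr9:65265180-65280605 on the plus strand and its relative *Cilp2* spans chr8:69880369-69887687 on the minus strand. *Angptl7* spans chr4:148495183-148500460 on the minus strand, within the plus-strand gene *Mtor*. The 3′ libraries keep the strand of the mRNA, so reads of *Bop1* and *Mtor* are not counted for the genes inside them.

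After filtering, 25479 cells remained of 34038 barcodes, with 4110 to 8223 cells and 83405494 to 156567619 UMIs per library and a median of 16094 to 17632 UMIs per cell. Between 5 and 15 of the kept barcodes were shared by any 2 libraries. Clusters were named from marker genes that did not include the 7 genes, which were also left out of the clustering, and the names may differ from those of the study. The 6 mesenchymal classes held 9170 cells, with 994 cells in control 4 dpf, 3239 in control 7 dpf, 817 in RA 4 dpf and 4120 in RA 7 dpf. The tenocyte-like class was 1 cluster of 820 cells, namely 134, 227, 91 and 368 cells in the same order, or 13.5%, 7.01%, 11.1% and 8.93% of the mesenchymal cells. Its defining markers were all higher in it than in the pool of all other cells, mesenchymal or not. *Fmod* (fibromodulin) was at 4035 against 78.5 UMIs per 1000000 UMIs of all genes (CPM). *Kera* (keratocan) was at 1002 against 6.15 CPM and *Chad* (chondroadherin) at 244 against 13.2 CPM. Of the mesenchymal *Chad* UMIs, the class held 82.6%, 22.6%, 99.7% and 35.1% in the same order, so other mesenchymal cells held most at 7 dpf. For *Fmod* these shares were 90.7%, 37.0%, 91.0% and 73.2%, and for *Kera* 97.1%, 85.75%, 98.8% and 80.8%. For *Comp*, also a defining marker, they were 63.7%, 9.6%, 40.9% and 19.35%. For *Col11a1*, another, they were 52.0%, 7.27%, 33.3% and 17.35%. The class held 10.1%, 6.31%, 6.93% and 7.87% of all mesenchymal UMIs in the same order. *Prg4*, the gene of the joint lubricant lubricin, was also among the 10 leading genes of the tenocyte-like class. The other classes were fibroblast-like cells (3536), committed mesenchymal progenitor-like cells (2772, marked by *Postn* and *Aspn*), MSC-like fibroblast precursor-like cells (1239), cycling common mesenchymal-like cells (409) and osteochondral progenitor-like cells (394). Of the osteochondral progenitor-like cells, 1 came from control 4 dpf and 5 from RA 4 dpf, so that only the 7 dpf libraries gave a level for that class. The doublet caller marked 2.68% of the tenocyte-like and 2.67% of the committed progenitor-like cells. Clustered without integration of the libraries, the tenocyte-like class held 476 cells in place of 820. The cells outside it were then 875 of 994, 3170 of 3235, 725 of 811 and 3909 of 4115 mesenchymal cells, in the library order above.

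Basic helix-loop-helix factors such as scleraxis bind the E-box, CANNTG, a motif that reads the same on both strands. Because these genes were high in the same cells, the 250 bases before the start of the RefSeq entry (build GRCm38.p6) were searched for E-boxes, which are printed in capitals. Entries were found for 5 of the 7 genes, and not for *Scx* and *Mkx*. The RefSeq start need not be the GENCODE limit given above. The *Cilp2* window (chr8:69887393-69887642) lies within the GENCODE limits of that gene and is not printed. The last 28 bases of the *Tnmd* window, which lie within the GENCODE limits of *Tnmd*, are left out. The stretches printed are chrX:133850758-133850979 for *Tnmd*, chr13:92794819-92795068 for *Thbs4*, chr9:65264930-65265179 for *Cilp* and chr4:148500463-148500712 for *Angptl7*, each 5′ to 3′ on the strand of the gene.
Tnmd: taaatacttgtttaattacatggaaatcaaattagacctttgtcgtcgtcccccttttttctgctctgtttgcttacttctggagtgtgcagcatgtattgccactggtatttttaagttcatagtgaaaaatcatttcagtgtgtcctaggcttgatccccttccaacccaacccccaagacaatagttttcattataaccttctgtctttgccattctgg
Thbs4: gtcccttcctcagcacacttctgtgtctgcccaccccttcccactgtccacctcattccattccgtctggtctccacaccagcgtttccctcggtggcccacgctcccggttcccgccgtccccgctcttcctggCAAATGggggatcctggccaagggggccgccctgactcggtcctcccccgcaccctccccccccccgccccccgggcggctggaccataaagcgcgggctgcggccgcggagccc
Cilp: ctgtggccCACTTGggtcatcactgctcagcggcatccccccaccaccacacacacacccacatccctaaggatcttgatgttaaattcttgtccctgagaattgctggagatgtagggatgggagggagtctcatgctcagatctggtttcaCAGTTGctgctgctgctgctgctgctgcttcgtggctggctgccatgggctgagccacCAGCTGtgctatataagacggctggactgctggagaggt
Angptl7: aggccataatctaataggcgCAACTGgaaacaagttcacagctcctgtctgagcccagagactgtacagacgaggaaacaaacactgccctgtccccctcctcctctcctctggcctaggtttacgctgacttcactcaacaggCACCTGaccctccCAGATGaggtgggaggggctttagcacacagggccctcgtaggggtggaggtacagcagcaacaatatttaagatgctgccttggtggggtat
The *Tnmd* window held no E-box. The *Thbs4* window held 1, CAAATG, which began 115 bases before the RefSeq start, and the *Cilp2* window held 1, CAGTTG, which began 156 bases before it. The *Cilp* window held 3, at 242, 97 and 39 bases before the start, and the *Angptl7* window held 3, at 230, 106 and 93 bases before it. Of 32851 promoter windows of the same length, 66.2% held at least 1 E-box, 12.2% held at least 3 and 33.8% held none, so either count was common. The GC content was 38.4% for *Tnmd*, 70.8% for *Thbs4*, 56% for *Cilp*, 62.4% for *Cilp2* and 54.4% for *Angptl7*, beside a median of 52.4% over all windows. A motif match is a description of the letters and not a bound site.

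The tenocyte-like class had the highest mean level of every one of the 7 genes. Levels are given as CPM, the UMIs of a gene per 1000000 UMIs of all genes in the cells of a class and library, and libraries are listed in the order control 4 dpf, control 7 dpf, RA 4 dpf and RA 7 dpf. Among the transcription factors, *Scx* was at 271, 257, 333 and 299 CPM in tenocyte-like cells. The next class, the committed progenitor-like cells, had *Scx* at 56.3, 57.6, 16.5 and 27.0 CPM. The lowest tenocyte-like library thus lay above the highest library of any other mesenchymal class, while the committed progenitor-like and cycling classes overlapped each other. *Mkx* was at 218, 129, 300 and 192 CPM in tenocyte-like cells. Its second class was the osteochondral progenitor-like cells, with 34.2 CPM in control 7 dpf and 36.3 CPM in RA 7 dpf, above the committed progenitor-like cells (18.3 to 27.3 CPM). The order of the remaining classes was thus not the same for both factors, since osteochondral progenitor-like cells held *Scx* at only 17.4 and 6.01 CPM.

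*Tnmd*, the membrane glycoprotein, was at 1620, 1352, 1202 and 1445 CPM in tenocyte-like cells. Committed progenitor-like cells had 55.4, 142, 14.1 and 107 CPM, and the cycling class overlapped them with 7.71 to 89.4 CPM. Fibroblast-like cells held 18.9 to 42.6 CPM, and MSC-like fibroblast precursor-like cells were lowest with 1.19 to 8.41 CPM. *Tnmd* in the 3 largest mesenchymal classes therefore reached at most 142 CPM, with no overlap with the tenocyte-like libraries.

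The matrix genes divided into those nearly limited to tenocyte-like cells and those that other fibroblastic cells shared. *Thbs4*, which encodes the matricellular protein thrombospondin 4, was at 7482, 3922, 11879 and 4869 CPM in tenocyte-like cells and at 378 to 684 CPM in fibroblast-like cells. *Cilp*, which encodes cartilage intermediate layer protein, was at 1069, 612, 1513 and 834 CPM in tenocyte-like cells and at 438, 513, 662 and 519 CPM in fibroblast-like cells. *Cilp* was the only gene of the 7 whose tenocyte-like libraries overlapped the next class. *Cilp2*, which encodes a second protein of the same family, was at 299, 201, 411 and 250 CPM in tenocyte-like cells and at no more than 6.70 CPM in any library of another mesenchymal class. *Angptl7*, which encodes an angiopoietin-like secreted protein, was at 525, 72.5, 1156 and 92.9 CPM in tenocyte-like cells and at 2.70 to 8.25 CPM in fibroblast-like cells. The spread of *Angptl7* between the tenocyte-like libraries (462 ± 508 CPM, SD, n = 4) was the widest of the 7 genes in relation to its mean, and that of *Scx* (290 ± 33.2 CPM, SD, n = 4) the narrowest. These SDs are over 4 different conditions.

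**Figure D1:**
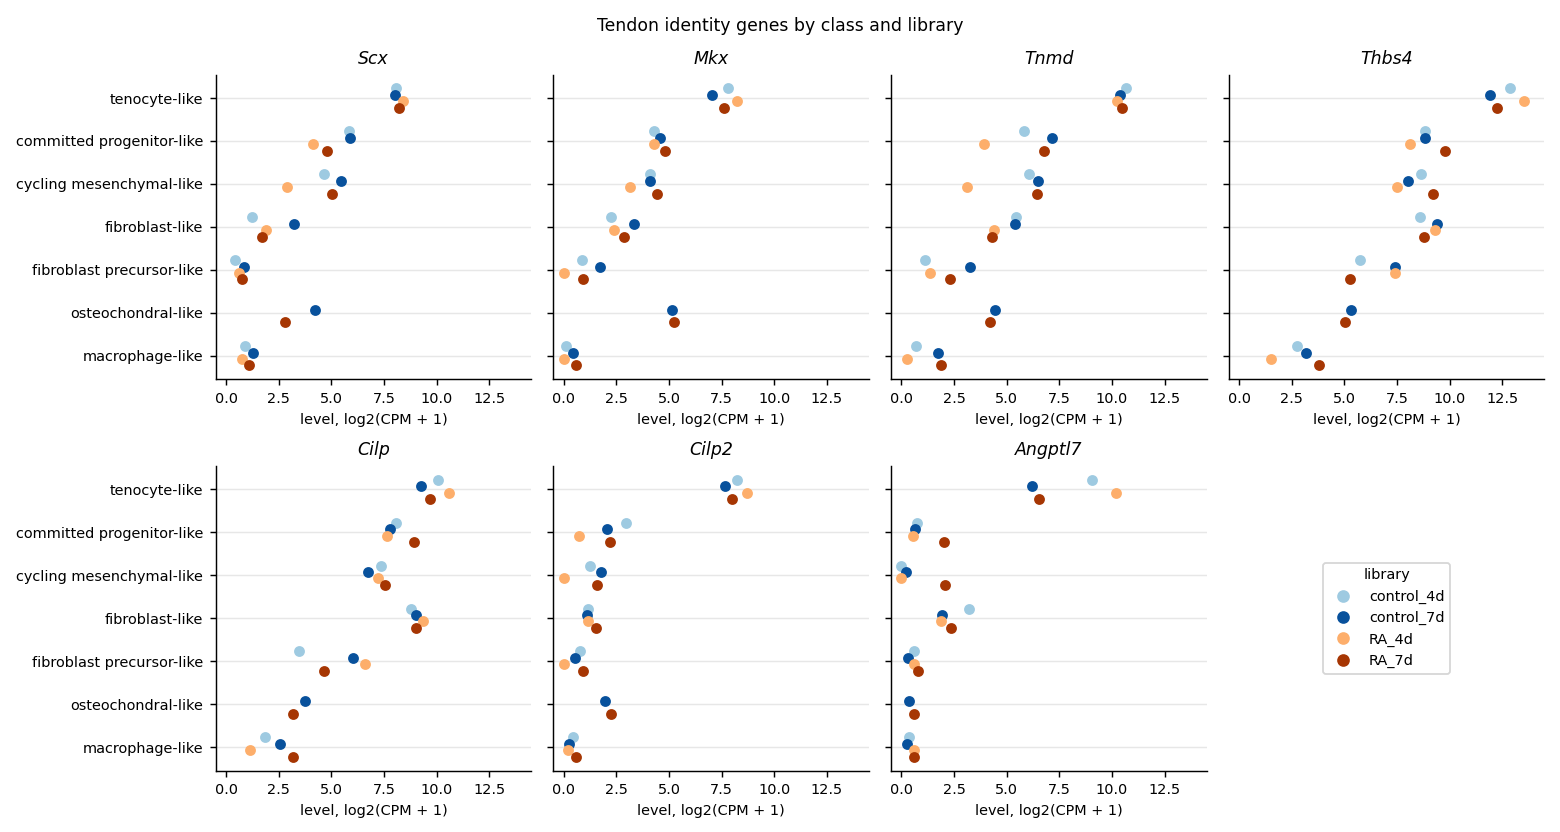
Level of each gene, as log2(CPM + 1) on the x axis, in each mesenchymal class and in macrophage-like cells, with 1 point per library. The tenocyte-like points lie to the right of those of every other class for all genes except Cilp, whose fibroblast-like points (438 to 662 CPM) overlap them.

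Free RNA in the droplets can give UMIs to cells that do not make a gene, and macrophage-like cells served as the reference for it. In cells thinned to 4000 UMIs each, *Tnmd* was detected in 96.3%, 88.1%, 91.2% and 93.2% of tenocyte-like cells and in 0.176%, 1.05%, 0% and 0.883% of macrophage-like cells. No cell fell under 4000 UMIs, so thinning left none out. Without thinning the *Tnmd* shares were 95.6% to 98.9% in tenocyte-like cells (median 16062 to 22482 UMIs per cell) and 0.292% to 3.09% in macrophage-like cells (median 10980 to 14203 UMIs). *Thbs4* was detected in 92.1% to 100% of thinned tenocyte-like cells, and had the highest macrophage-like share of the 7 genes in each library, 0.948% to 4.77%. *Scx* was detected in 51.1% to 56.3% and *Mkx* in 33.5% to 68.1% of thinned tenocyte-like cells, with at most 0.441% of macrophage-like cells for either gene. *Cilp2* was detected in 39.7% to 67.0%, and its share was highest in RA 4 dpf and lowest in control 7 dpf. *Angptl7* was detected in 53.7%, 9.69%, 52.8% and 19.8% of them, and the 4 dpf libraries were above the 7 dpf libraries.

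**Figure D2:**
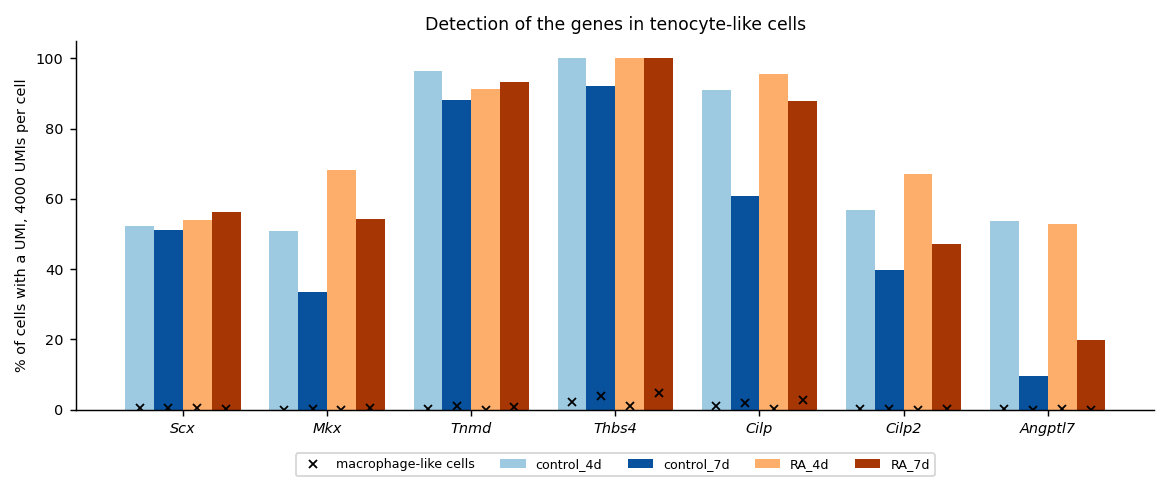
Percentage of tenocyte-like cells with at least 1 UMI of each gene after each cell was thinned to 4000 UMIs (bars, 1 per library), with the same share in macrophage-like cells of that library (crosses). Tnmd and Thbs4 were detected in 88.1% to 100% of tenocyte-like cells, and Angptl7 in 52.8% to 53.7% at 4 dpf and 9.69% to 19.8% at 7 dpf.

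Most tenocyte-like cells held several of the 7 genes, and few held all of them. At least 4 of the 7 were found in 85.8%, 58.6%, 91.2% and 79.1% of thinned tenocyte-like cells, and 6 or 7 of them in 37.3%, 10.1%, 46.2% and 25.0%. All 7 were found in 17 of 134, 4 of 227, 17 of 91 and 24 of 368 cells. These shares were not compared with those given by the detection of each gene alone. The control 7 dpf library was lowest in both percentages and RA 4 dpf highest. The shares were not recomputed for the smaller tenocyte-like class that clustering without integration gave. Across the full counts, the tenth of tenocyte-like cells with the most *Angptl7* held 50.5%, 90.3%, 48.3% and 69.7% of all its UMIs, beside 26.5% to 35.3% for *Tnmd*. The median tenocyte-like cell held 5 *Angptl7* UMIs in control 4 dpf and 0 in control 7 dpf.

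Restriction to *Tnmd*-positive cells was asked next, taking as positive every mesenchymal cell with at least 1 *Tnmd* UMI. *Tnmd*-positive cells made up 28.3% of mesenchymal cells in control 4 dpf (281 of 994), 31.6% in control 7 dpf (1023 of 3239), 21.4% in RA 4 dpf (175 of 817) and 24.3% in RA 7 dpf (1003 of 4120). Tenocyte-like cells were 47.0%, 21.2%, 51.4% and 36.0% of these positive cells, and committed progenitor-like cells were 20.6%, 45.4%, 21.7% and 33.6%. At 4 dpf the largest group of positive cells was therefore tenocyte-like in both conditions, and in control 7 dpf it was committed progenitor-like.

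The positive cells held 26.9% of all mesenchymal UMIs, which is the share a gene would have if it were spread evenly over the RNA. They held 96.1% of the 5129 *Cilp2* UMIs and 93.9% of the 5132 *Angptl7* UMIs, 78.0% of the *Scx* UMIs and 75.8% of the *Mkx* UMIs. They held 68.8% of the *Thbs4* UMIs and 34.3% of the *Cilp* UMIs. The tenocyte-like class alone, with 7.53% of all mesenchymal UMIs, held 90.6% of the *Cilp2* and 90.6% of the *Angptl7* UMIs, 68.4% of the *Tnmd* UMIs and 17.9% of the *Cilp* UMIs. Between libraries, the share of *Scx* in positive cells was 81.5%, 66.7%, 81.7% and 87.8%, and that of *Mkx* was 89.2%, 63.9%, 77.8% and 79.1%. Control 7 dpf was lowest for both factors although its positive cells held the largest share of the RNA (32.1%).

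Other tendon genes were less uniform. Of 20 other tendon regulators and signals, the median share held by positive cells was 28.2% and the range 9.47% to 97.8%, with *Mstn* (myostatin, a growth-limiting TGF-β family member) highest. Of 22 other tendon matrix genes, the median was 30.6%, with *Kera* highest at 95.9% and *Col22a1* (a collagen of tissue junctions) at 91.1%. Of 11 relatives of the 7 genes, among them the other thrombospondins and angiopoietin-like genes, the median was 26.5% and the highest share 43.4%. The 6 genes other than *Tnmd* had a median of 76.9%.

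The levels in *Tnmd*-positive and *Tnmd*-negative cells of the same library were then compared by edgeR's quasi-likelihood test with the library as a block, over 4 libraries and 16294 genes. *Tnmd* itself chose the cells and was left out. With the library as a block, the spread in this test is how the positive to negative difference varies between libraries. The 4 libraries are the 4 conditions, so condition and preparation cannot be told apart in that spread. In mesenchymal cells as a whole, 739 genes were higher in positive cells at an adjusted p under 0.05 (4.54% of those tested). Another 814 were lower (5.0%). All 6 of the other tendon identity genes were among the higher. They had been chosen with earlier results of these data known, so this count is a description and not separate evidence. The median UMI count per cell was 24203 to 28963 in positive and 24002 to 32447 in negative cells.

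*Scx* was at 145, 94.2, 134 and 118 CPM in positive cells and at 11.8, 22.2, 7.11 and 5.42 CPM in negative cells. The groups did not overlap, and the log2 fold change was 3.57 (SE 0.38, adjusted p = 0.00208 by edgeR's quasi-likelihood test with Benjamini-Hochberg adjustment, as for every adjusted p below). *Mkx* was at 102, 47.6, 124 and 87.7 CPM in positive and at 4.45, 12.7, 8.40 and 7.64 CPM in negative cells, a log2 fold change of 3.38 (SE 0.38, adjusted p = 0.00236). Both transcription factors were thus higher in positive cells in 4 of 4 libraries, with the smallest gap in control 7 dpf.

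*Thbs4* was at 3307, 1262, 4616 and 2216 CPM in positive and at 247, 372, 376 and 373 CPM in negative cells, a log2 fold change of 2.94 (SE 0.33, adjusted p = 0.00236). *Cilp2* was at 123, 42.7, 151 and 84.3 CPM in positive and at 0.675, 1.502, 0.464 and 1.19 CPM in negative cells, a log2 fold change of 6.25 (SE 0.42, adjusted p = 0.000506). *Angptl7* was at 206, 14.9, 423 and 33.1 CPM in positive and at 2.07, 1.29, 0.464 and 2.40 CPM in negative cells, a log2 fold change of 5.46 (SE 0.81, adjusted p = 0.00694). For all 3 genes every positive value lay above every negative value. The negative sums held 15, 83, 9 and 92 UMIs of *Cilp2* and 46, 71, 9 and 185 UMIs of *Angptl7*. Macrophage-like cells, the reference for free RNA, held *Cilp2* at 0.148 to 0.516 CPM and *Angptl7* at 0.187 to 0.516 CPM. In RA 4 dpf their *Angptl7* level was 0.492 CPM, above that of the negative cells. The sizes of these 2 fold changes thus rest on negative levels near that reference. *Cilp* was at 584, 299, 737 and 556 CPM in positive and at 260, 280, 377 and 375 CPM in negative cells, so that the groups overlapped and control 7 dpf differed little. Its log2 fold change was 0.71 (SE 0.16, adjusted p = 0.0312), and the call was lost without control 4 dpf (adjusted p = 0.103), without RA 4 dpf (0.113), without RA 7 dpf (0.108) and without the library block (0.244). With robust estimation in the same fit, the setting first used and replaced by the default after its results were seen, the calls of *Cilp* (adjusted p = 0.0963) and *Angptl7* (0.117) were lost, and those of *Scx*, *Mkx*, *Thbs4* and *Cilp2* were not (0.0127 to 0.0485).

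**Figure D3:**
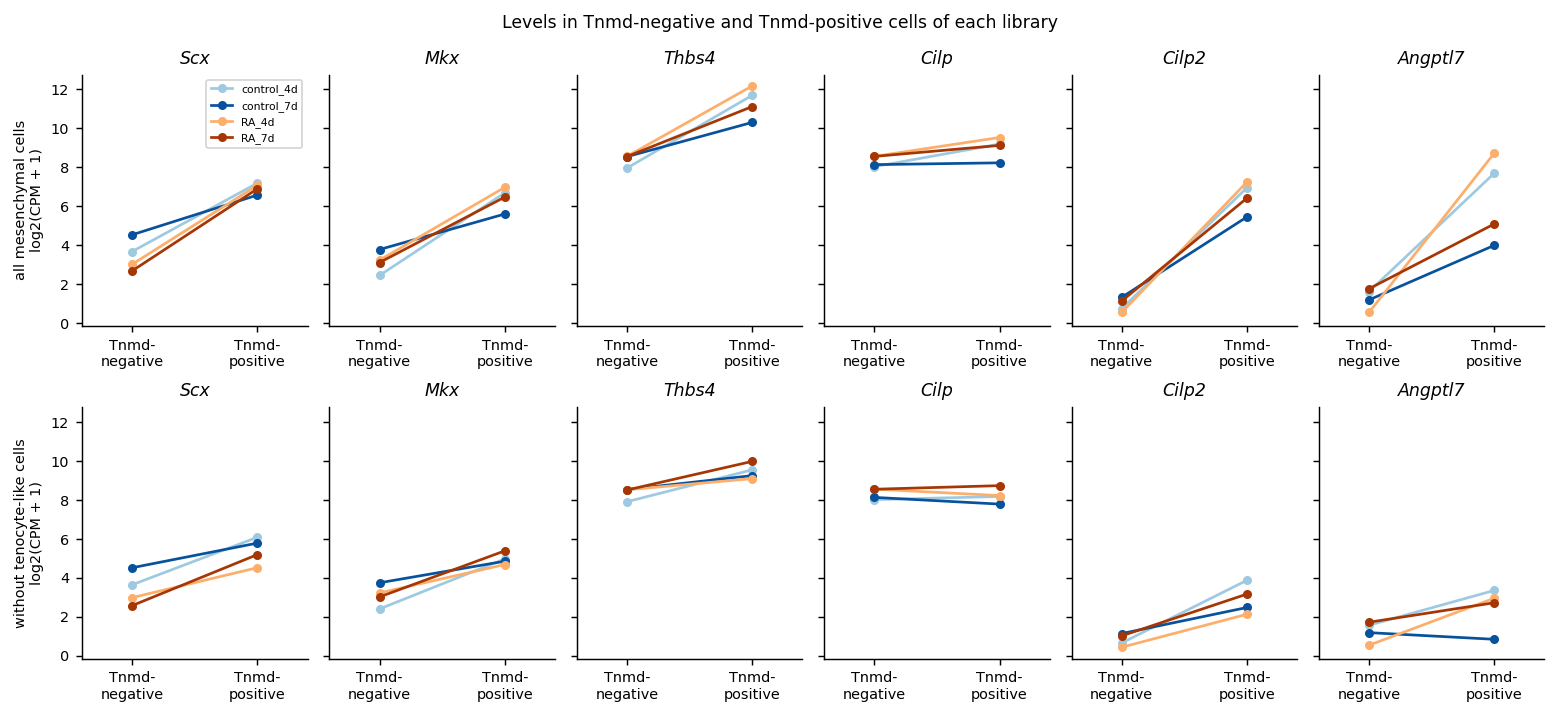
Level of each gene, as log2(CPM + 1), in Tnmd-negative and Tnmd-positive cells, with 1 line per library, for all mesenchymal cells (top) and without the tenocyte-like class (bottom). All lines go up in the top row, while in the bottom row the Cilp lines are nearly level and the control 7 dpf line of Angptl7 goes down.

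Among the other tendon regulators and signals, 17 of 20 were tested, of which 6 were higher in positive cells, 2 were lower and 9 were not called. Their median log2 fold change was 0.28, beside 0.00 over all genes tested. Among the higher ones were the homeobox gene *Six2*, the transcriptional cofactor genes *Eya1* and *Eya2*, *Tgfb3* (a TGF-β ligand) and *Mstn*. *Mstn* was at 11.8 to 22.2 CPM in positive cells and at no more than 0.195 CPM in negative cells (log2 fold change 6.99). Its negative sums held only 1, 3, 1 and 15 UMIs, so it passed the low-count filter through the positive sums alone. Its call is therefore a description. Tenocyte-like cells held 97.45% of its mesenchymal UMIs. The negative sums of *Six2* were also small, with 1, 23, 4 and 15 UMIs, and it too passed the filter through the positive sums alone. The call of *Six2* is likewise a description. *Eya2* was at 36.3 to 84.6 CPM in positive and at 5.44 to 14.3 CPM in negative cells (2.55, SE 0.30, adjusted p = 0.00289 by edgeR). *Klf2* and *Klf4*, zinc finger factors, were slightly lower in positive cells, by 0.25 and 0.36 on the log2 scale.

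Among the other tendon matrix genes, 7 of 22 were higher in positive cells, 2 were lower and 13 were not called, with a median log2 fold change of 0.43. The higher ones were *Kera*, *Fmod*, *Prelp* and *Ogn* (small leucine-rich proteoglycans), *Col12a1* and *Col22a1* (fibril-associated collagens) and *Lox* (a collagen cross-linking enzyme). *Col22a1* rested on 1, 42, 1 and 87 UMIs in negative cells. It would not have passed the low-count filter without the positive sums, so its call is a description. *Kera* was at 154 to 686 CPM in positive and at 0.464 to 8.27 CPM in negative cells. The collagen genes *Col3a1* and *Col14a1* were lower, by 0.50 and 0.61 on the log2 scale, in 4 of 4 libraries. *Col1a1*, the main tendon and bone collagen, was at 11263 to 16304 CPM in positive and 11803 to 15431 CPM in negative cells and was not called (log2 fold change 0.14).

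The relatives of the 7 genes split. *Thbs1* was higher in positive cells (log2 fold change 1.18, SE 0.11, adjusted p = 0.00157 by edgeR), as were *Thbs2* (0.48) and *Angptl2* (0.68). *Thbs3*, *Irx3* and *Irx5* were lower, with log2 fold changes of -0.40, -0.96 and -1.54, and 5 of 11 were not called. *Irx3* and *Irx5* encode homeobox factors of the Iroquois type, to which *Mkx* is related by its homeodomain. The 10 leading genes outside the 7 were *Kera*, *Fmod*, *Sema3a*, *Gas2*, *Matn4*, *Abi3bp*, *Ppfibp2*, *Egfl6*, *Cpxm2* and *Ccdc3*, with log2 fold changes from 6.64 for *Kera* to 1.73 for *Ccdc3*. Of them *Sema3a* encodes a secreted guidance protein, *Matn4* a matrilin and *Abi3bp* a matrix protein.

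To see how much of this was held by the tenocyte-like class, the comparison was repeated without it. Outside that class 149 of 860, 806 of 3012, 85 of 726 and 642 of 3752 cells were *Tnmd*-positive. Committed progenitor-like cells were 58, 464, 38 and 337 of these positive cells, and 256, 1168, 279 and 1069 of all cells outside the tenocyte-like class. Positive and negative cells were thus not matched by class, and the part of class in the differences below was not tested. Of 15844 genes tested, 322 were higher (2.03%) and 424 were lower (2.68%) in positive cells, and 4 of the 6 genes were higher. *Scx* was at 67.2, 54.4, 22.1 and 35.8 CPM in positive and at 11.6, 22.0, 6.96 and 4.99 CPM in negative cells (log2 fold change 2.10, SE 0.24, adjusted p = 0.00418 by edgeR). *Mkx* was at 30.5, 28.1, 24.8 and 41.0 CPM in positive and at 4.32, 12.5, 8.40 and 7.15 CPM in negative cells (1.98, SE 0.25, adjusted p = 0.00526 by edgeR). *Cilp2* was at 13.7, 4.60, 3.40 and 8.02 CPM in positive and at 0.585, 1.22, 0.361 and 1.04 CPM in negative cells (2.94, SE 0.36, adjusted p = 0.00456 by edgeR). Its levels rested on few UMIs, namely 68, 97, 10 and 141 in positive and 13, 67, 7 and 80 in negative cells. Positive and negative values did not overlap for these 3 genes, although the positive cells carried each gene at less than the tenocyte-like level. For *Scx* the closest values nearly met, at 22.09 CPM in RA 4 dpf positive and 22.04 CPM in control 7 dpf negative cells. Median UMI counts per cell were 32968, 26309.5, 37047 and 26983.5 in positive and 32459, 24042.5, 30940 and 24356.5 in negative cells, higher in positive cells of each library.

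*Thbs4* was at 750, 610, 548 and 1012 CPM in positive and at 240, 371, 368 and 365 CPM in negative cells (log2 fold change 1.11, SE 0.16, adjusted p = 0.00927 by edgeR). *Cilp* was at 289, 221, 299 and 427 CPM in positive and at 259, 281, 376 and 375 CPM in negative cells, lower in 2 libraries and higher in 2 (log2 fold change -0.07, adjusted p = 0.773 by edgeR). *Angptl7* was at 9.29, 0.806, 6.80 and 5.63 CPM in positive and at 1.98, 1.29, 0.464 and 2.32 CPM in negative cells, higher in 3 of 4 libraries (1.42, SE 0.51, adjusted p = 0.184 by edgeR). *Angptl7* was called without control 7 dpf (adjusted p = 0.0288 by edgeR), with no filter on low counts (0.0126) and with no integration of the libraries (0.00769). The call of *Thbs4* was lost without RA 7 dpf (adjusted p = 0.0531 by edgeR), and robust estimation lost those of *Scx* (0.0658), *Mkx* (0.0661) and *Thbs4* (0.0981). Without the library block no call of the 7 genes remained (adjusted p = 0.199 to 1 by edgeR).

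Outside the tenocyte-like class 6 of 16 tested regulators and signals were higher in positive cells (*Six2*, *Eya1*, *Eya2*, *Sox9* and *Tgfb3* among them). Another 2 were lower (*Klf4* and *Tgfbr2*, a TGF-β receptor). The 16 had a median log2 fold change of 0.20 beside 0.00 over all genes. *Six2* rested on 1, 23, 4 and 10 UMIs in negative cells and passed the low-count filter through the positive sums alone, so its call is a description. *Mstn* was not tested there. *Sox9*, the cartilage transcription factor, was at 87.0, 186, 126 and 122 CPM in positive and at 75.0, 163, 109 and 101 CPM in negative cells (0.23, SE 0.05, adjusted p = 0.0334 by edgeR). Of the matrix genes 5 of 22 were higher (*Col12a1*, *Fmod*, *Kera*, *Ogn* and *Lox*) and *Col14a1* was lower. *Fmod*, *Kera* and *Cpxm2* had been used to name the class that was left out. *Edil3* had been used to name the committed progenitor-like, *Sox9* the osteochondral progenitor-like and *Col14a1* the fibroblast-like class. Of the relatives *Thbs1* alone was higher and *Thbs3*, *Irx3* and *Irx5* were lower. The leading genes were *Egfl6*, *Fmod*, *Matn4*, *Edil3*, *Col8a2*, *Rflnb*, *Ltbp2*, *Ecrg4*, *Cpxm2* and *Hbegf*.

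The levels also differed by the number of *Tnmd* UMIs and not by presence alone. After each mesenchymal cell was thinned to 4000 UMIs, *Scx* was at 7.04 to 24.7 CPM in cells with no *Tnmd* UMI, at 21.2 to 94.4 CPM with 1 UMI, at 98.0 to 194 CPM with 2 or 3, and at 257 to 394 CPM with 4 or more. *Cilp2* was at 0.943 to 3.99 CPM with none and at 170 to 575 CPM with 4 or more. *Angptl7* did not follow the same order in every library, since RA 4 dpf had 1145 CPM with 2 or 3 *Tnmd* UMIs and 787 CPM with 4 or more. The share of tenocyte-like cells moved along with these bins, from 0.629% to 1.13% with no *Tnmd* UMI to 62.9% to 97.9% with 4 or more, and its part in these levels was not tested. The fewest cells in any bin and library were 29.

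**Figure D4:**
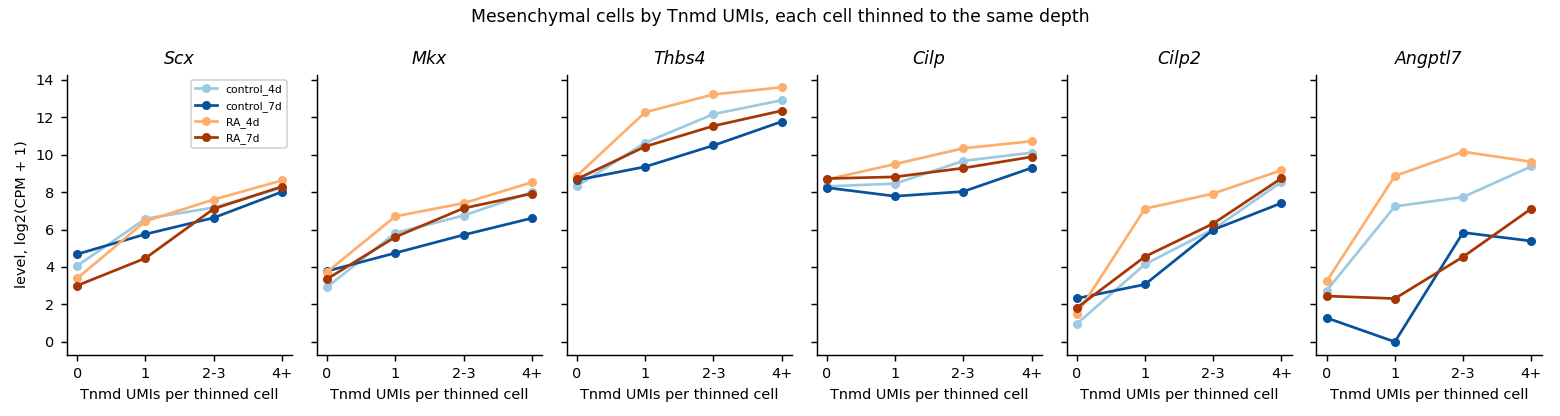
Level of each gene, as log2(CPM + 1), in mesenchymal cells grouped by their number of Tnmd UMIs after thinning to 4000 UMIs per cell, with 1 line per library. The levels of Scx, Mkx, Thbs4 and Cilp2 go up from 0 to 4 or more Tnmd UMIs in each library, and Angptl7 is higher in the 4 dpf than in the 7 dpf libraries at 1 or more UMIs.

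The share of *Tnmd*-positive mesenchymal cells was lower in RA than in control callus on both days. RA callus held 0.758 times the control share at 4 dpf (0.624 to 0.918) and 0.771 times at 7 dpf (0.706 to 0.842). Outside the tenocyte-like class these ratios were 0.676 (0.512 to 0.888) and 0.639 (0.576 to 0.710). After thinning to 4000 UMIs the shares were 20.02%, 18.8%, 13.1% and 15.5%, and the ratios 0.654 and 0.824. The ratio of 7 to 4 dpf was 1.12 (0.978 to 1.28) in control and 1.14 (0.967 to 1.34) in RA callus, so that each interval held 1. Outside the tenocyte-like class the share was higher at 7 dpf, by a ratio of 1.55 (1.30 to 1.85) in control and 1.46 (1.16 to 1.86) in RA callus.

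The cells passed a limit of 50000 UMIs, and that limit bore unequally on the days. Of the mesenchymal cells gated by marker UMIs under a looser filter, 25.0% in control 4 dpf and 22.7% in RA 4 dpf exceeded it, against 4.45% in control 7 dpf and 2.39% in RA 7 dpf. Under that gate the 7 to 4 dpf ratios of the *Tnmd*-positive share were 1.32 (1.15 to 1.52) and 1.48 (1.23 to 1.79).

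Over all mesenchymal cells, RA against control differed by gene. The comparisons of RA to control and of 7 to 4 dpf share libraries, so their values are given side by side and not as separate evidence. At 4 dpf *Tnmd* was at 96.8 CPM in RA and 200 CPM in control callus, a ratio of 0.485 (0.462 to 0.509), and *Scx* was at 31.4 and 46.9 CPM, a ratio of 0.669 (0.612 to 0.731). *Angptl7* was at 81.3 and 56.0 CPM, a ratio of 1.45 (1.36 to 1.55), and *Cilp* at 446 and 346 CPM, a ratio of 1.29 (1.25 to 1.32). *Tnmd* was the only gene of the 7 at least 2-fold apart, a distance that 3.63% of 14275 genes with 50 or more UMIs reached. At 7 dpf none of the 7 was 2-fold apart (6.59% of 17361 genes were), *Scx* was again lower in RA callus with a ratio of 0.737 (0.704 to 0.773), and *Tnmd* was at 156 and 160 CPM.

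From 4 to 7 dpf the largest difference among the 7 genes was in *Angptl7*. It was at 56.0 CPM at 4 dpf and 5.66 CPM at 7 dpf in control callus, a ratio of 0.101 (0.0909 to 0.112), and at 81.3 and 10.0 CPM in RA callus, a ratio of 0.123 (0.114 to 0.133). *Cilp2* was at 32.9 and 14.7 CPM in control callus, a ratio of 0.447 (0.411 to 0.487), and these were the 2 genes of the 7 that were 2-fold apart there (7.42% of 16083 genes), while in RA callus only *Angptl7* was (6.95% of 16468 genes). *Thbs4* was lower at 7 dpf in both conditions, with ratios of 0.622 and 0.699. *Tnmd* was lower at 7 dpf in control callus (0.803, 0.779 to 0.828) and higher in RA callus (1.61, 1.54 to 1.68). Under the looser gate the log2 ratio of *Tnmd* in control callus turned from -0.32 to 0.55 and that of *Thbs4* in RA callus from -0.52 to 0.47, while *Angptl7* stayed lower at 7 dpf, at -2.37 in control and -1.83 in RA callus.

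Levels over all mesenchymal cells move with the share of each class, so the same ratios were taken within tenocyte-like cells. At 4 dpf the 6 genes other than *Tnmd* were higher in RA than in control tenocyte-like cells. *Angptl7* was highest, at 1156 against 525 CPM, a ratio of 2.20 (2.06 to 2.36), followed by *Thbs4* with a ratio of 1.59 (1.56 to 1.62) and *Cilp* with 1.42 (1.34 to 1.49). *Mkx* and *Cilp2* had ratios of 1.37 (1.22 to 1.55) and 1.38 (1.24 to 1.52), and *Scx* had 1.23 (1.10 to 1.37). The direction of *Scx* turned in gated cells with at least 2 UMIs each of *Kera* and *Fmod*, to a log2 ratio of -0.045. *Tnmd* was lower in RA cells, at 1202 against 1620 CPM, a ratio of 0.742 (0.705 to 0.782). *Angptl7* alone was 2-fold apart, as were 6.78% of 8227 genes, and it no longer was when cells were thinned, when libraries were not integrated or under TMM scaling (log2 ratios of 0.59, 0.99 and 0.94 in place of 1.14). TMM scaling moved the median log2 ratio of all genes from 0.07 to -0.13 in this comparison.

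At 7 dpf the ratios of RA to control in tenocyte-like cells lay between 1.07 (1.04 to 1.10) for *Tnmd* and 1.49 (1.36 to 1.63) for *Mkx*, and none of the 7 genes was 2-fold apart, beside 3.07% of 11058 genes. Their direction rested on the clustering. Without integration of the libraries the log2 ratios of *Scx*, *Tnmd*, *Thbs4*, *Cilp* and *Angptl7* turned to values between -0.17 and -0.01, and *Mkx* stayed higher in RA cells with 0.44.

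Within tenocyte-like cells *Angptl7* was lower at 7 than at 4 dpf in both conditions, with ratios of 0.138 (0.123 to 0.155) in control and 0.0803 (0.0737 to 0.0875) in RA callus. Its log2 ratio ranged from -2.97 to -1.78 in control and from -4.38 to -2.78 in RA callus over 9 settings of clustering, filters and scaling, the reported one included. *Thbs4* was at 7482 and 3922 CPM in control cells, a ratio of 0.524 (0.514 to 0.534), and at 11879 and 4869 CPM in RA cells, a ratio of 0.410 (0.403 to 0.417). *Cilp* had ratios of 0.572 and 0.551, *Mkx* of 0.591 and 0.639, and *Cilp2* of 0.673 and 0.608. *Scx* moved least, with 0.951 (0.871 to 1.04) in control and 0.898 (0.819 to 0.987) in RA cells. *Tnmd* was lower at 7 dpf in control cells (0.834, 0.804 to 0.866) and higher in RA cells (1.20, 1.15 to 1.26), where the *Kera* and *Fmod* gate turned its log2 ratio from 0.27 to -0.11. Thinning turned that of *Scx* in RA cells to 0.028.

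In control cells *Angptl7* alone of the 7 was 2-fold apart between the days, as were 6.73% of 9801 genes, and in RA cells *Angptl7* and *Thbs4* were, as were 8.14% of 10379 genes. Without integration the log2 ratio of *Cilp2* turned to 0.17 in control and 0.22 in RA cells, and that of *Thbs4* in control cells was -0.11. The median over the 7 genes was -0.76 in control and -0.72 in RA cells, beside 0.12 and 0.00 over all genes compared (0.01 and 0.09 under TMM scaling). Of the 22 other tendon matrix genes, 7 were at least 2-fold lower at 7 dpf and 1 higher in control cells. In RA cells 4 were at least 2-fold lower and 6 higher. Their median log2 ratio was 0.00 in control and 0.26 in RA cells. Among the lower ones were *Fmod*, *Prelp* and *Chad* in both conditions, and *Kera*, *Dcn* and *Comp* (cartilage oligomeric matrix protein) in control cells. *Fmod* was at 5594, 2440, 8111 and 3620 CPM, and *Prelp* at 912, 277, 1206 and 354 CPM. *Col3a1* was at 5743, 10661, 1649 and 10435 CPM, so that RA 4 dpf tenocyte-like cells held the least of this collagen. The ratios of these other matrix genes were taken only under the reported clustering and filters. They were not recomputed for the smaller tenocyte-like class that clustering without integration gave.

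**Figure D5:**
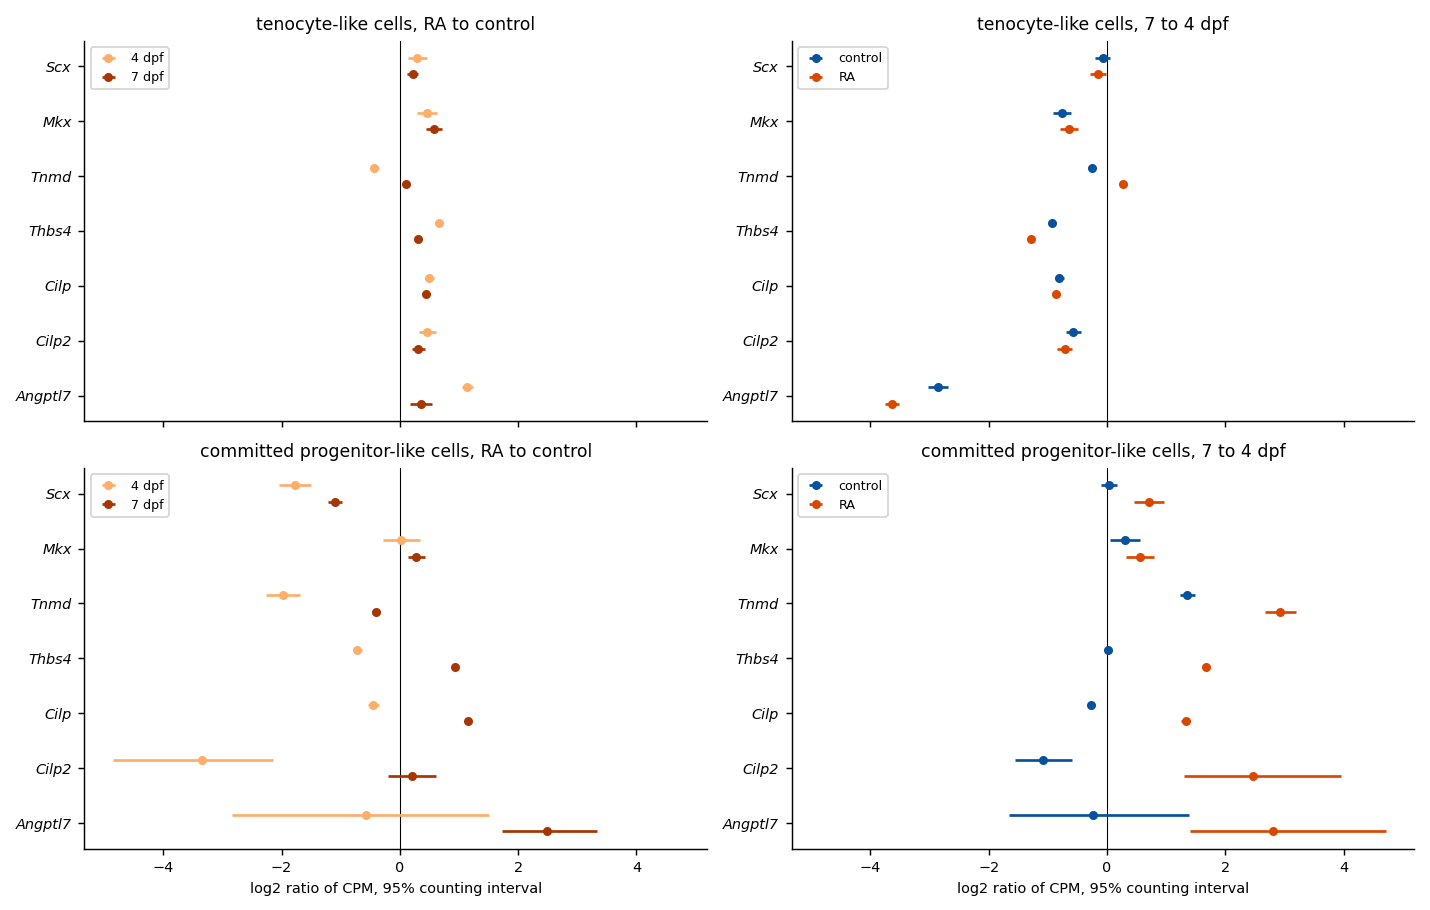
Log2 ratios of CPM of each gene in tenocyte-like (top) and committed progenitor-like cells (bottom), RA to control (left) and 7 to 4 dpf (right), with 95% intervals of the counts. In tenocyte-like cells Angptl7 is lowest at 7 relative to 4 dpf (-2.86 in control and -3.64 in RA callus), and in committed progenitor-like cells Tnmd and Scx are lower in RA callus at 4 dpf.

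Committed progenitor-like cells, the mesenchymal class with the second highest mean of *Scx* and *Tnmd*, gave another pattern. At 4 dpf *Scx* was at 16.5 CPM in RA and 56.3 CPM in control cells, a ratio of 0.293 (0.243 to 0.352), and *Tnmd* at 14.1 and 55.4 CPM, a ratio of 0.254 (0.208 to 0.309). *Cilp2* rested on 6 and 62 UMIs, a ratio of 0.0979 (0.0346 to 0.225). These 3 genes were 2-fold apart, as were 3.06% of 11695 genes, and *Mkx* was at 18.6 and 18.3 CPM. *Angptl7* rested on 4 and 6 UMIs and was not compared.

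At 7 dpf *Scx* was at 27.0 and 57.6 CPM in RA and control committed progenitor-like cells, a ratio of 0.469 (0.431 to 0.510), whereas *Cilp* was at 491 and 221 CPM, a ratio of 2.22 (2.16 to 2.28), and *Thbs4* at 865 and 454 CPM, a ratio of 1.91 (1.87 to 1.95). *Angptl7*, with 92 and 17 UMIs, had a ratio of 5.60 (3.31 to 10.0). *Scx*, *Cilp* and *Angptl7* were 2-fold apart, as were 4.99% of 14402 genes. Without integration none of the 7 was, and the log2 ratios of *Scx* and *Tnmd* turned to 0.20 and 0.53, while those of *Thbs4* and *Cilp* were 0.88 and 0.82.

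From 4 to 7 dpf *Tnmd* was higher in committed progenitor-like cells of both conditions, at 55.4 and 142 CPM in control (ratio 2.56, 2.34 to 2.81) and at 14.1 and 107 CPM in RA callus (ratio 7.61, 6.38 to 9.14). Its log2 ratio stayed above 0 under each of the 6 alternatives, from 0.95 to 2.22 in control and from 2.70 to 3.85 in RA callus. None of the 6 lifted the limit of 50000 UMIs, and the marker gate without that limit was not run for this class. The 4 dpf cells of the class had medians of 37904 UMIs in control and 35261 in RA callus, against 26499.5 and 27941 at 7 dpf. *Thbs4* was at 449 and 454 CPM in control cells and at 273 and 865 CPM in RA cells, a ratio of 1.01 (0.976 to 1.05) beside 3.18 (3.05 to 3.31). In control cells *Tnmd* and *Cilp2* were 2-fold apart, the latter lower at 7 dpf with 62 and 98 UMIs, as were 4.44% of 13396 genes. The log2 ratio of *Cilp2* there, -1.08, turned to 0.67 without integration, to 0.61 with the 7 genes among the variable genes and to 0.073 with thinning. In RA cells *Tnmd*, *Thbs4*, *Cilp*, *Cilp2* and *Angptl7* were, as were 7.31% of 13470 genes, all 5 higher at 7 dpf, the last 2 named with 6 and 4 UMIs at 4 dpf.

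Across 22 sums of class and library, the genes whose log2(CPM + 1) was most like that of each member were *Gng11*, *Syne1* and *Fhod3* for *Scx* (Pearson r of 0.96 for each), *Fmod*, *Cacnb2* and *Nedd9* for *Mkx* (0.96 to 0.97) and *Gng11*, *Zfp185* and *Kctd1* for *Tnmd* (0.93 to 0.94). They were *Gas2*, *Hbegf* and *Pkd2* for *Thbs4* (0.93 to 0.96) and *Sh3rf3*, *Bace2* and *Fzd1* for *Cilp* (0.93 to 0.94). They were *Uts2r*, *Ptx4* and *Chst5* for *Cilp2* (0.97 for each) and *Fgf9*, *Ppfibp2* and *Uts2r* for *Angptl7* (0.94 to 0.97). The sums share libraries and classes, and 5238 genes were compared, so these values describe likeness of pattern and carry no test.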

How the data were processed

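All 4 single-cell libraries of fracture callus (10x Genomics 3′ chemistry) were used, each loaded with 10000 cells. The authors deposited raw UMI counts per gene and barcode, made with Cell Ranger 7.0.1 against mm10 per the submitters' processing notes, and whether intronic reads were counted is not given in the sources used here. Pools held 4 calluses per the design text of the series and 3 per the study's methods, and the sources were not reconciled.

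Following the study's filter, cells with 4000 to 50000 UMIs, 2000 to 7000 genes and under 8% mitochondrial UMIs were kept. The libraries were integrated and clustered in Seurat 5.3.0 (2000 variable genes without the 7 genes, 30 integration dimensions, 15 principal components, resolution 0.5). Each of 22 clusters was named from its markers (at least 3 detected, score of 1 or more, under 40% called doublets). Mesenchymal names also needed *Prrx1* at 100 CPM or more. The 1 cluster that stayed unnamed held 68 cells, of which 94.1% were called doublets. These naming thresholds were set after the clusters were seen. Doublets called by Scrublet (scanpy 1.11.5) in named clusters were kept, and left out as an alternative. UMIs were summed by class and library. *Tnmd*-positive and *Tnmd*-negative sums were compared by edgeR 4.0.16 (R 4.3.3, TMM, filterByExpr, quasi-likelihood test, library as a block, two-sided) with Benjamini-Hochberg adjustment over all genes tested. Robust estimation was first used in that fit and was replaced by the default after its results were seen. The fit was also run on simulated counts. In these, both sums of a library shared 1 library effect, so variation of the positive to negative difference between libraries was not tested. Ratios between conditions were compared for genes with at least 50 UMIs.

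The 7 genes and the gene lists were chosen with earlier results of these data known. The genes named were the 7, the members of 3 lists, the 10 with the largest fold change in *Tnmd*-positive cells among those past the threshold with at least 50 CPM and higher in each library, and the 3 closest in pattern to each of the 7. A gene of the lists that entered their counts is not reported here by name. Alternatives were another resolution, no integration, clustering with the 7 genes, doublets left out, thinning, a marker gate with a looser filter (at least 1000 UMIs, no upper limit), a stricter *Tnmd* threshold, DESeq2 1.42.0, no low-count filter, no block, TMM scaling, a pseudocount of 1 CPM and leaving out each library.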

Additional observations from a re-analysis of the deposited data

Results flagged for a closer look

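In 8 pairs the same contrast pointed in opposite directions on the 2 days or in the 2 conditions, with 1 library on each side, and none of these differences was tested. Over all mesenchymal cells the log2 ratio of RA to control for *Cilp2* was -0.17 at 4 dpf and 0.57 at 7 dpf, and the log2 ratio of 7 to 4 dpf for *Tnmd* was -0.32 in control and 0.69 in RA callus. In tenocyte-like cells *Tnmd* stood at -0.43 on this scale for RA to control at 4 dpf, against 0.10 at 7 dpf. Its 7 to 4 dpf log2 ratio there was -0.26 in control and 0.27 in RA callus.

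In committed progenitor-like cells the RA to control log2 ratio of *Thbs4*, a matricellular protein gene, was -0.72 at 4 dpf and 0.93 at 7 dpf, and that of *Cilp* was -0.45 and 1.15. The 7 to 4 dpf log2 ratio of *Cilp* was -0.27 in control and 1.33 in RA callus, and that of *Cilp2* was -1.08 and 2.47, the latter on few UMIs. Each library enters only a single value of a pair, so a library that stands apart would move that value and not the other.

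In 6 of the 8 pairs an alternative turned 1 value, so that both then pointed the same way. Over mesenchymal cells *Cilp2* stood at 0.13 at 4 dpf when cells were thinned, and *Tnmd* over time at 0.55 in control under the marker gate with the looser filter. In tenocyte-like cells *Tnmd* stood at -0.073 at 7 dpf without integration, and over time at -0.11 in RA callus under the *Kera* and *Fmod* gate. In control committed progenitor-like cells *Cilp* over time stood at 0.042 without integration, and *Cilp2* at 0.67 without integration and 0.61 with the 7 genes among the variable genes. The RA to control pairs of *Thbs4* and *Cilp* in committed progenitor-like cells kept opposite directions under each of the 6 alternatives. None of the 6 lifted the limit of 50000 UMIs.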

How the results depend on the processing

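The share of *Tnmd*-positive cells was lower in RA callus under each of the 7 alternatives tried on each day. The higher levels of *Scx*, *Mkx*, *Thbs4* and *Cilp2* in *Tnmd*-positive mesenchymal cells kept their direction and call under every alternative. No paired analysis by replicate number was possible because each group holds 1 library; the library block stands in its place. Without it 169 genes were higher and 27 lower in mesenchymal cells in place of 739 and 814, and 2 and 0 outside the tenocyte-like class in place of 322 and 424 (739 at an unadjusted p under 0.05). Leaving out each library gave 276 to 721 higher and 283 to 685 lower genes, and 72 to 327 and 114 to 493 outside the class, the fewest each time without RA 7 dpf. Without control 4 dpf 438 were higher, and without control 7 dpf 166 were higher and 198 lower outside the class. With no low-count filter 505 were higher and 877 lower there.

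Of 611 ratios of single genes recomputed under the alternatives, 400 stayed within the counting interval of the reported ratio, 182 left it, and a further 29 changed direction where that interval had not held a ratio of 1. The cause was not tested. In committed progenitor-like cells thinning left a library with 0 UMIs of *Cilp2* or *Angptl7*, and 5 ratios could then not be taken. The marker gate with the looser filter gave 7 to 4 dpf ratios of the *Tnmd*-positive share of 1.32 in control and 1.48 in RA callus, and thinning gave 0.939 in control. As log2 ratios over mesenchymal cells, the gate gave 0.19 for *Mkx*, 0.55 for *Tnmd* and 0.30 for *Cilp* in control from 4 to 7 dpf and 0.47 for *Mkx*, 0.47 for *Thbs4*, 0.75 for *Cilp* and 0.63 for *Cilp2* in RA callus. For RA to control it gave -0.029 for *Thbs4* at 4 dpf and 0.062 for *Tnmd* at 7 dpf. The values in the rest of this paragraph are log2 ratios as well. Gated cells with at least 2 UMIs each of *Kera* and *Fmod* were a choice made after seeing the data. In them the RA to control log2 ratios were -0.045 and -0.17 for *Scx* at 4 and 7 dpf and -0.0195 for *Tnmd* at 7 dpf. The log2 ratio of *Tnmd* in RA from 4 to 7 dpf was -0.11. Thinning gave 0.13 for *Cilp2* at 4 dpf and 0.0085 for *Tnmd* at 7 dpf over mesenchymal cells, 0.028 for *Scx* in RA tenocyte-like cells over time and 0.073 for *Cilp2* in control committed progenitor-like cells over time. Without integration, tenocyte-like RA to control log2 ratios at 7 dpf were -0.048 (*Scx*), -0.073 (*Tnmd*), -0.17 (*Thbs4*), -0.022 (*Cilp*) and -0.0064 (*Angptl7*). The log2 ratio of *Cilp2* over time was then 0.17 in control and 0.22 in RA cells. In committed progenitor-like cells, a class compared after its values were seen, *Scx* and *Tnmd* were at 0.20 and 0.53 for RA to control at 7 dpf, and *Cilp* and *Cilp2* at 0.042 and 0.67 in control over time. With the 7 genes among the variable genes *Cilp2* was at 0.61 there.

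The number of the 7 genes at least 2-fold apart also moved. Over mesenchymal cells the gate gave 2 and thinning 0 in place of 1 for RA to control at 4 dpf, and the gate gave 1 in place of 2 in control and 2 in place of 1 in RA over time. In tenocyte-like cells at 4 dpf, thinning, no integration and TMM scaling gave 0 and the *Kera* and *Fmod* gate 3 in place of 1. Over time TMM scaling gave 2 and thinning 3 in place of 1 in control, and no integration gave 1 and that gate 4 in place of 2 in RA. In committed progenitor-like cells no integration gave 0 in place of 3 at 7 dpf. There, thinning, no integration and clustering with the 7 genes gave 1 in place of 2 in control, and thinning gave 3 in place of 5 in RA over time.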

Other observations

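Outside the mesenchymal cells, muscle-like cells held *Scx* at 56.2 CPM in control 4 dpf (204 cells), 42.1 CPM in control 7 dpf (308), 40.6 CPM in RA 4 dpf (117) and 29.7 CPM in RA 7 dpf (314). *Tnmd* was listed there at 0, 1.57, 0 and 8.33 CPM and *Mkx* at 2.36 to 4.28 CPM. At 4000 UMIs per cell *Scx* was detected in 15.2%, 13.3%, 7.69% and 5.10% of muscle-like cells and in 0.353% to 0.441% of macrophage-like cells, so its share there stood above the background share. No comparison of the report used these cells.

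Mural-like cells held *Thbs4* at 22.3, 42.2, 5.82 and 87.5 CPM and *Tnmd* at 9.01, 16.1, 5.82 and 30.1 CPM. Endothelial-like cells held each of the 7 genes at no more than 18.9 CPM.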
